A study of Mus musculus with 18 samples.

Results

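The 8 long mouse genes Slc9a9, Ttc28, Xylt1, Sntb1, Fry, Stx8, Mad1l1 and Ldlrad4 carried broad H3K79me2 domains in cells labelled naive CD4 T cells. These genes had far shorter domains in Th1 and Th2 cells. They are 8 of 21631 protein-coding genes on chromosomes 1 to 19 and X, and they were picked by name for the length of gene body covered by peaks in naive, Th1 and Th2 lists. The naive against Th1 or Th2 values below are therefore a description with no test, and the tested comparison is Th2 against Th1. The choice also drew on the Th1 and Th2 lists, so that test is not independent of it. H3K79me2 is the dimethylation of lysine 79 of histone H3, set by DOT1L, the enzyme known for this residue. It is laid down along transcribed genes behind the start site and is densest over the first part of active genes.

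Chromatin immunoprecipitation and sequencing was done with 3 H3K79me2 libraries each of naive, Th1 and Th2 cells, all labelled WT, and 9 input libraries were not analysed here. Naive cells were sorted as CD44- CD62L+ cells straight from spleens of WT mice. Cd8a and Cd8b1, which mark CD8 T cells, were 100% covered in all 3 naive lists. Whether the naive sort held cells other than CD4 T cells was not tested. Th1 cells came from enriched CD4 T cells stimulated for 4 days by plate-bound antibodies to CD3 and CD28 in a medium holding IL-12, IL-2 and an antibody to IL-4, and were sorted by YFP from an IFNg-YFP reporter mouse. Th2 cells were cultured on the same plates with IL-4, IL-2 and anti-IFNg and were sorted by IL-4 AmCyan or IL-13 dsRed from the 4C13R reporter mouse. Culture, activation, reporter strain and cell type thus changed together between naive and helper cells, and their effects cannot be told apart. Between Th1 and Th2 cells the reporter strain, the sort and the medium changed together with cell type. Their effects on the Th2 against Th1 differences cannot be told apart either. The labels give neither age nor sex, nor whether each library of a group is a different mouse, so a p-value here describes the scatter of libraries alone, and that scatter may be technical. The naive lists held 38026 to 40455 peaks over 275.6 to 285 Mb, the Th1 lists 41504 to 46085 peaks over 217 to 240.1 Mb and the Th2 lists 45894 to 51854 peaks over 232 to 249.9 Mb. Read depth is unknown.

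Every member is long, from 241 kb (Stx8) to 561 kb (Slc9a9), and no member except Ldlrad4 overlaps another protein-coding gene. Slc9a9 (chr9:94669557-95230453, mm10, all coordinates 1-based) encodes a sodium-proton exchanger of endosomes. Ttc28 (chr5:110879785-111289780) encodes a tetratricopeptide repeat protein. Xylt1 (chr7:117380979-117667630) encodes the xylosyltransferase that starts glycosaminoglycan chains on proteoglycan cores, and Sntb1 (chr15:55636388-55907302) encodes beta-1-syntrophin, an adaptor of the dystrophin complex. Fry (chr5:150118618-150497753) encodes a large microtubule-binding scaffold of NDR kinases. Stx8 (chr11:67966411-68207148) encodes an endosomal SNARE protein, and Mad1l1 (chr5:140008689-140321608) encodes the spindle checkpoint protein that carries MAD2 to kinetochores. Ldlrad4 encodes a membrane protein that limits TGF-beta signalling to SMAD2 and SMAD3. Its high-coordinate end overlaps the gene Fam210a.

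The RefSeq promoter table (GRCm38.p6, the assembly of mm10) held 6 windows for 5 of the 8 genes, and gave the strand of those 5. Xylt1, Sntb1 and Ldlrad4 had no entry, so positions in these 3 are counted from the low-coordinate end. The 250 bases before the annotated start are shown, 5′ to 3′, for 4 genes whose starts behaved differently in the peak lists, with CG dinucleotides in capitals. The Slc9a9 window is chr9:94669642-94669891 (plus strand), that of Ttc28 chr5:110879553-110879802 (plus), that of Stx8 chr11:67966208-67966457 (plus) and that of Mad1l1 chr5:140321553-140321802 (minus). A second Mad1l1 window, chr5:140174919-140175168 (minus), belongs to a start inside the gene.
Slc9a9: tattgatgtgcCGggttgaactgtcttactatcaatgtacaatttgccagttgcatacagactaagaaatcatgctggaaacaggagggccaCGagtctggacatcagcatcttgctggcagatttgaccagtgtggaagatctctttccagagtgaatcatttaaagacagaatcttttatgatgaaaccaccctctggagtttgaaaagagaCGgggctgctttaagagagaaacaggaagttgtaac
Ttc28: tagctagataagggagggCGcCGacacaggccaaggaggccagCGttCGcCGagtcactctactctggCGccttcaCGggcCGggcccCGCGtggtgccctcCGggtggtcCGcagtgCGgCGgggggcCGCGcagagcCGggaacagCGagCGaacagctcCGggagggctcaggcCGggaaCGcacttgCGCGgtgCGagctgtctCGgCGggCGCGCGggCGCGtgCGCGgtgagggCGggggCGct
Stx8: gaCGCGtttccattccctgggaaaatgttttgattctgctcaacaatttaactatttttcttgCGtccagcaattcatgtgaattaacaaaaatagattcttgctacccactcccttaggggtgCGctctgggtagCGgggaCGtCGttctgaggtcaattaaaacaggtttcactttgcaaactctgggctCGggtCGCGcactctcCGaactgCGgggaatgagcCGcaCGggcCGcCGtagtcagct
Mad1l1: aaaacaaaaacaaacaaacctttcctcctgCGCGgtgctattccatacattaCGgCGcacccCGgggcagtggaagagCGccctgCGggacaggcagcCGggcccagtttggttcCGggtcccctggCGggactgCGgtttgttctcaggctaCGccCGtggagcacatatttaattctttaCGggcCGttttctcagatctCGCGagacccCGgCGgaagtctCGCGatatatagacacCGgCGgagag
Mad1l1 inner start: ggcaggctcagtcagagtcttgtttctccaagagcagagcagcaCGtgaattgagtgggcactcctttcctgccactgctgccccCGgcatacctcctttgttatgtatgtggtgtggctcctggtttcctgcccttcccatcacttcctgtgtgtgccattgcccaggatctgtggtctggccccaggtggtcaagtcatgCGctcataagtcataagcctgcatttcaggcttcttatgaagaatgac

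The starts did not look alike in sequence. Over the full windows of 300 bases, which run 50 bases past the start, Ttc28 had 49 CG dinucleotides, Mad1l1 25 at its outer and 3 at its inner start, Stx8 19, Fry 10 and Slc9a9 6, against a median of 7 (quartiles 3 and 20) over 32851 windows of all genes. Of the motifs searched on both strands in these windows, GGGCGG matched Fry 2 times and Ttc28 and Stx8 once each, and is present in 35.7% of all windows. CCGGAA matched the outer Mad1l1 window once (14.9% of all windows), GATAAG matched Ttc28 once (7.44%) and TATAAA matched none of the 6 (13.6%). The mark at these starts differed as well. The outer Mad1l1 window was 100% covered in all 9 lists, while the CG-rich Ttc28 window was bare in all 9. The Slc9a9 window was covered in the 3 naive lists and bare in the 6 helper lists, although the 5 kb behind its start stayed 88.4% to 97.7% covered in the helper lists. The Fry window lies 141 kb inside the gene as annotated in the gene table, and its following 5 kb were 99.6% ± 0.658 covered in naive cells (SD, n = 3 libraries, as throughout), bare in 3 Th1 and 2 Th2 lists and 8.88% covered in the other Th2 list.

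Together the 8 genes were covered over 2071 ± 41.8 kb in naive cells, but over 341 ± 52.6 kb in the Th1 lists and 554 ± 75.9 kb in the Th2 lists. The Th1 sum was 16.5% and the Th2 sum 26.8% of the naive sum. In each of the 8 genes the lowest naive library lay above the highest helper library. Because the genes were chosen on this contrast, nothing is read from that; of all 11600 genes tested, 16.3% were called lower and 4.38% higher in Th1 than in naive cells, together 20.7%, and 15.4% lower and 4.26% higher in Th2 than in naive cells, together 19.6% (limma on percent of gene body covered, Benjamini-Hochberg adjusted p under 0.05 and at least 25 points). The members' median difference from naive was -63.5 points in Th1 and -56.6 points in Th2 cells, beside -5.54 and -5.50 points over all genes tested. In bulk chromatin, fewer cells with the mark and less mark per cell cannot be told apart.

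**Figure D1:**
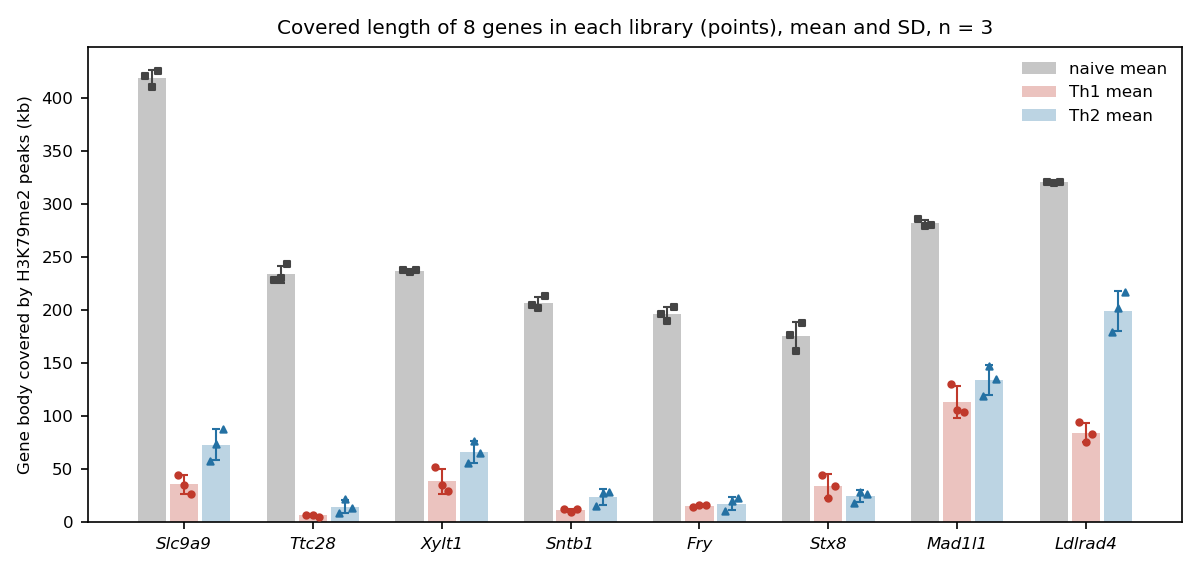
Kilobases of gene body covered by H3K79me2 peaks for each of the 8 genes. Bars are means, lines SD and points the 3 libraries of naive (grey squares), Th1 (red circles) and Th2 cells (blue triangles). All naive points lie above all helper points, and the Th2 points of Ldlrad4 lie above its Th1 points by the widest margin of the 8 genes.

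With all deposited peaks, though not with the stronger peaks alone, Slc9a9 lost the most sequence of any protein-coding gene in both helper types. Its peaks covered 421, 410.2 and 426 kb in the naive lists, 45.1, 35.6 and 27.0 kb in the Th1 lists and 58.2, 74.3 and 87.7 kb in the Th2 lists. The helper groups did not overlap, and the Th2 lists held more peaks in this gene, 60 to 96 against 21 to 38 in the Th1 lists. The share of all genes whose helper groups did not overlap was not counted. Nothing is therefore read from such separation alone, here or in the genes below. For position along a gene, each gene was divided into 10 equal segments. In naive cells the Slc9a9 domain ran unbroken (gaps of up to 2 kb allowed) for 111.8 ± 0.0454 kb from the 5′ end, with nearly the same end in all 3 lists. In helper cells this run was 20.6 ± 8.16 kb in Th1 and 15.2 ± 0.969 kb in Th2. The first segment of the gene held 13.3% ± 0.356 of the naive mark, 76.6% ± 7.94 of the Th1 mark and 28.7% ± 4.26 of the Th2 mark. The Th1 mark was thus concentrated at the 5′ end, while Th2 cells had small peaks along the whole gene. The longest stretch in all 6 helper lists was chr9:94670470-94675073, 4.604 kb long and 0.913 kb behind the gene's 5′ edge.

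Ttc28, the member with the smallest remainder, was covered over 229, 230.2 and 243 kb in naive, 7.45, 6.92 and 5.55 kb in Th1 and 9.18, 21.8 and 13.8 kb in Th2 lists. The lowest Th2 list was above the highest Th1 list by less than the Th2 spread. The naive domain did not begin at the annotated start: the strongest peak opened 98.8 to 99.0 kb inside the gene, the second segment was bare, and the fourth segment was 100% covered in all 3 lists. The largest remainder in the helper cells was an island in the eighth segment, ending 298 kb behind the start. It was the longest run in all 6 helper lists (7.52 ± 0.237 kb in Th1 and 8.22 ± 0.385 kb in Th2). In the 3 Th1 lists the other segments were at or below 0.341% in the mean, so the island was nearly all that remained. Of the bases covered in all 3 naive lists, 86.7% were covered in no helper list, the highest share among the 8 genes.

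Fry kept the mark at the 5′ edge of its gene model. It was covered over 196, 189.6 and 203 kb in naive, 14.98, 16.7 and 16.0 kb in Th1 and 10.7, 19.95 and 22.8 kb in Th2 lists, so that the helper groups overlapped. The naive domain filled the first 5 segments (90.8% to 99.3% in the mean) and 44.6% ± 8.18 of the sixth, and the last 4 segments held at most 3.19% in any group. In helper cells a run from the 5′ end reached 20.1 ± 1.50 kb in the Th1 lists and 14.5 ± 8.79 kb in the Th2 lists. The first segment held 81.7% ± 8.38 of the covered bases in Th1 and 68.6% ± 3.90 in Th2 cells, against 19.2% ± 0.555 in naive cells.

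Stx8 differed from the others in how firm its naive domain was. It was covered over 177, 162 and 188 kb in naive, 45.1, 23.2 and 34.7 kb in Th1 and 18.1, 28.8 and 27.2 kb in Th2 lists, with overlapping helper groups. Only 1 of its 32 to 44 naive peaks reached a −log10 q of 5, the one at the 5′ end, which was 13.5 to 15.9 kb long within the gene. All 6 helper lists kept that 5′ peak, with 6.12 ± 1.93 kb in the Th1 and 5.001 ± 1.02 kb in the Th2 lists. It was the strongest peak of the gene in every list, with a fold enrichment by the authors of 3.64 to 3.81 in naive, 4.03 to 4.65 in Th1 and 3.47 to 3.89 in Th2 lists, each a value within its own list. Lists were also trimmed to their strongest peaks so that all 9 covered the same total length. That length was set by Th1 replicate 3, the shortest list, which was left whole. Stx8 was then covered over 15.8, 13.5 and 15.9 kb in naive and 14.1, 13.5 and 34.7 kb in Th1 lists. The value of 34.7 kb is that of Th1 replicate 3, and the other Th1 lists lay within the naive range. The difference from naive turned to 2.37 points in Th1 cells through that untrimmed list, and was -3.13 points in Th2 cells. The naive coverage along the body of Stx8 thus consisted of weak peaks, and the mark at its 5′ end was present in all 9 lists.

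Mad1l1 kept the largest share of the mark among the genes with a known strand, and lost it mainly towards its 3′ end. It was covered over 286, 279 and 281 kb in naive, 131, 106.1 and 104 kb in Th1 and 119, 148 and 135 kb in Th2 lists, with overlapping helper groups. Counted from the 5′ end, segments 2 to 6 stayed 52.0% to 72.3% covered in Th1 and 64.5% to 81.6% in Th2 cells. The first segment held 31.5% ± 3.87 and 31.9% ± 4.91, against 87.3% ± 3.03 in naive cells. The seventh segment held 4.65% ± 2.64 and 13.6% ± 2.96, and the eighth was bare in both, against 90.9% ± 0.445 and 58.7% ± 3.78 in naive cells. All 6 helper lists shared 66.6 kb of this gene. The longest shared stretch, chr5:140149696-140164782 (15.1 kb), begins 157 kb behind the 5′ end, downstream of the inner start at 147 kb whose sequence is shown above. A shared stretch at the 5′ end, chr5:140315093-140321608, is 6.52 kb long and was part of peaks that ran on past the gene. The next gene there, Nudt1, which encodes a nucleotide-pool sanitising hydrolase, lies 0.014 kb away, and a broad peak across both starts cannot be assigned to 1 of them.

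Xylt1 and Sntb1 kept scattered islands. Xylt1 was covered over 238, 236 and 238 kb in naive, 52.1, 34.9 and 29.6 kb in Th1 and 56.2, 76.8 and 65.1 kb in Th2 lists, with no overlap of the helper groups. The lowest-coordinate segment held 50.5% ± 10.4 in Th1 and 49.8% ± 7.92 in Th2 cells, and coverage was lower further along the gene, at 8.46% ± 3.24 and 26.4% ± 4.47 in the fifth segment and at most 1.33% and 7.20% from the eighth on. The longest stretch in all 6 helper lists was chr7:117397367-117400478 (3.11 kb). Neither Xylt1 nor Sntb1 was called between Th2 and Th1 cells. Sntb1 was covered over 205, 202 and 213 kb in naive, 12.4, 9.39 and 12.3 kb in Th1 and 15.5, 27.7 and 28.4 kb in Th2 lists, again with no overlap of the helper groups. Its naive domain left the first 2 segments nearly bare (12.9% ± 4.86 and 17.1% ± 2.37). Helper coverage was densest in the last 4 segments, and the first 6 held at most 0.548% in Th1 and 4.12% in Th2 cells in the mean. The longest stretch in all 6 helper lists was chr15:55832512-55833943 (1.43 kb).

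Ldlrad4 (chr18:67932274-68260550) was almost wholly covered in naive cells and differed most between Th1 and Th2 cells. It was covered over 321, 320.1 and 321 kb in naive, 94.3, 76.2 and 83.8 kb in Th1 and 179, 202 and 217 kb in Th2 lists. The Th2 lists kept 62.1% and the Th1 lists 26.4% of the naive length in the mean. In both the mark was densest over the first 2 segments from the low-coordinate end, which held 69.2% ± 7.003 and 60.4% ± 6.88 in Th1 and 90.7% ± 3.53 and 93.0% ± 3.07 in Th2 cells. From the fifth to the seventh segment Th1 coverage was 11.7% to 14.5% and Th2 coverage 51.4% to 70.6%. Both groups were lowest near the high-coordinate end, with 2.63% ± 2.74 and 16.8% ± 6.17 in the last segment, where naive cells had 94.5% ± 1.64.

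**Figure D2:**
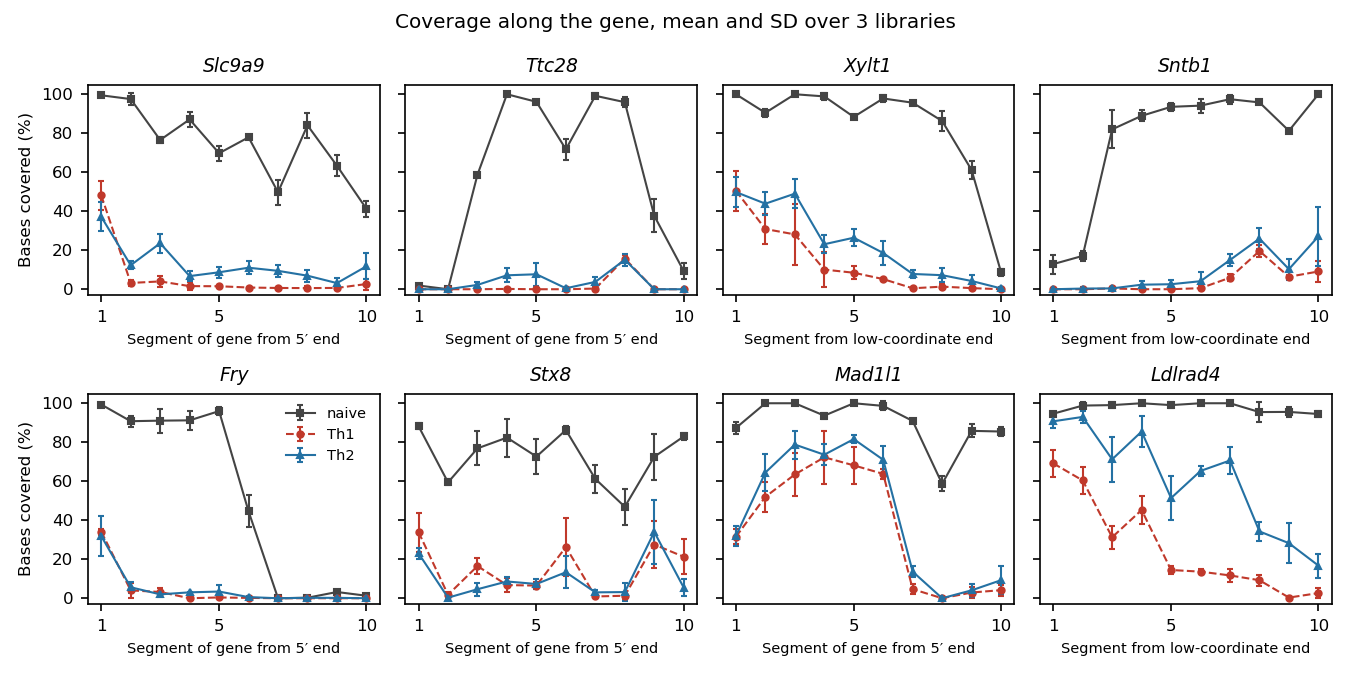
Percent of bases covered in each segment of the 8 genes, mean and SD over 3 libraries, for naive (grey), Th1 (red, dashed) and Th2 cells (blue), counted from the 5′ end or, where no strand was available, from the low-coordinate end. Slc9a9 and Fry keep the mark in the first segment, Ttc28 in the eighth, Mad1l1 in the first 6, and Ldlrad4 shows a Th2 line between the naive and Th1 lines.

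Most of what the helper lists kept lay inside the naive domains. The genes were chosen for broad naive domains, so nothing is read from this overlap. Bases covered in at least 1 naive list filled 324.6 of the 328.3 kb of Ldlrad4 and 212.9 of the 379.1 kb of Fry. Of the bases covered in any helper list, 96.8% (Slc9a9) to 100% (Sntb1 and Ldlrad4) were covered in at least 1 naive list, and in none of the 8 genes was a base covered in all 6 helper lists and in no naive list. The bases covered in all 3 naive lists and in no helper list made up 22.1% of the naive-shared bases in Ldlrad4, 31.1% in Mad1l1 and 52.8% to 86.7% in the other 6. The helper peaks were also narrow: the median peak in a member was 298 to 3172 bp wide in Th1 and 334 to 1869 bp in Th2 lists, and 1913 to 74300 bp in naive lists. No peak of Xylt1 or Sntb1 in any helper list reached a −log10 q of 5. Slc9a9, Ttc28 and Fry had no such peak in any Th2 list. In the Th1 lists such peaks covered 12.001, 0 and 0 kb of Slc9a9, 3.862, 3.802 and 0 kb of Ttc28 and 4.512, 0 and 0 kb of Fry. What Th2 cells kept in Slc9a9, Ttc28 and Fry thus consisted of weaker peaks alone. Stx8, Mad1l1 and Ldlrad4 had at least 1 peak reaching this q in every helper list. The microRNA genes Mir701 and Mir7656 lie in these domains, Mir701 in Ttc28, which was 100% covered in naive and bare in all helper lists, and Mir7656 in Slc9a9, which was 66.7% ± 57.7 covered in naive lists.

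**Figure D3:**
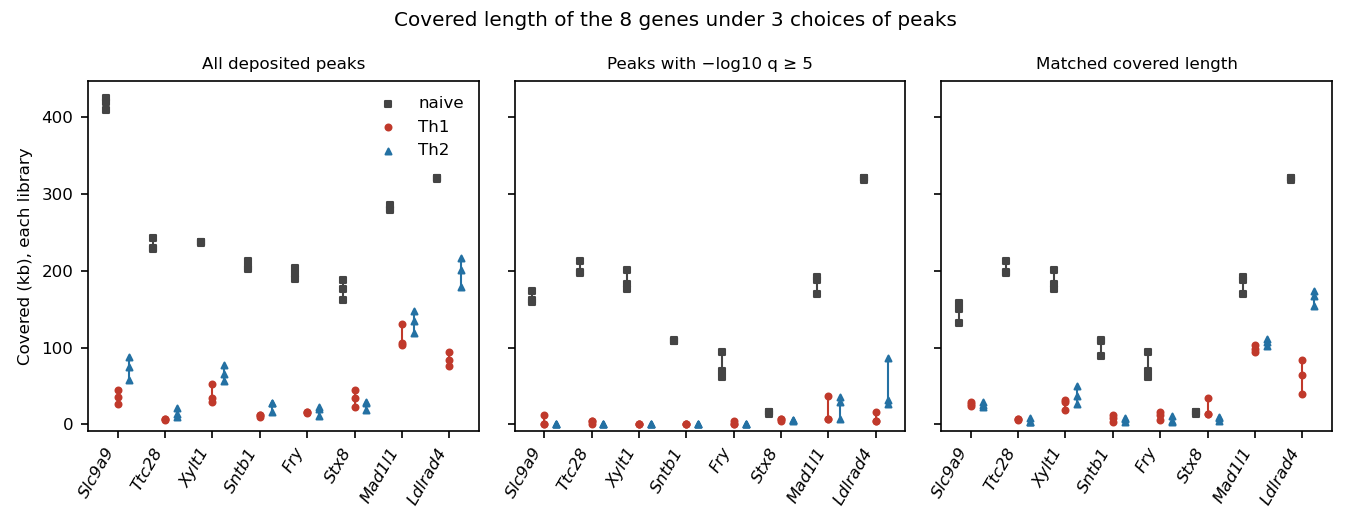
Covered kilobases of each gene in each library (points, with a line from the lowest to the highest) for all deposited peaks, for peaks with a −log10 q of at least 5 and for lists trimmed to the same covered length. Naive points stay above helper points in every panel for 7 genes, and for Stx8 the naive and Th1 points meet under matched length.

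The strength of the peaks set how much of each naive domain would remain under a stricter list. With peaks of a −log10 q of at least 5 only, the naive sum over the 8 genes was 1258 ± 20.8 kb, the Th1 sum 39.1 ± 36.1 kb and the Th2 sum 77.2 ± 41.8 kb, which are 3.11% and 6.14% of the naive sum. With matched covered length the sums were 1233 ± 27.1, 261 ± 53.2 and 361 ± 21.4 kb, which are 21.2% and 29.3%. Ldlrad4 rested on strong naive peaks, 320.3 kb of its 321 kb remaining at the stricter q, as did Ttc28 with 203 of 234 kb. Slc9a9 kept 165 of 419 kb, Fry 75.1 of 196 kb and Stx8 15.1 of 176 kb.

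Set beside other long genes, the members were at the low end, as the choice implies. Among 554 protein-coding genes of at least 100 kb that were at least 50% covered in naive cells, the median gene kept 82.1% of its naive coverage in Th1 and 83.9% in Th2 cells, and 58 genes kept under 50% in both. Ttc28 ranked 9th lowest of 554 in Th1 and 4th in Th2, Sntb1 12th and 8th, Fry 13th and 6th, Slc9a9 14th and 15th, Xylt1 23rd and 25th and Stx8 28th and 11th. Mad1l1 ranked 61st and 56th, and Ldlrad4 42nd and 112th. The first segment held a median of 11.7% of covered sequence in naive, 14.0% in Th1 and 13.9% in Th2 lists over the long genes of this set with a known strand (444, 442 and 444 genes), and 12.1%, 23.8% and 22.4% over the 5 members with one.

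**Figure D4:**
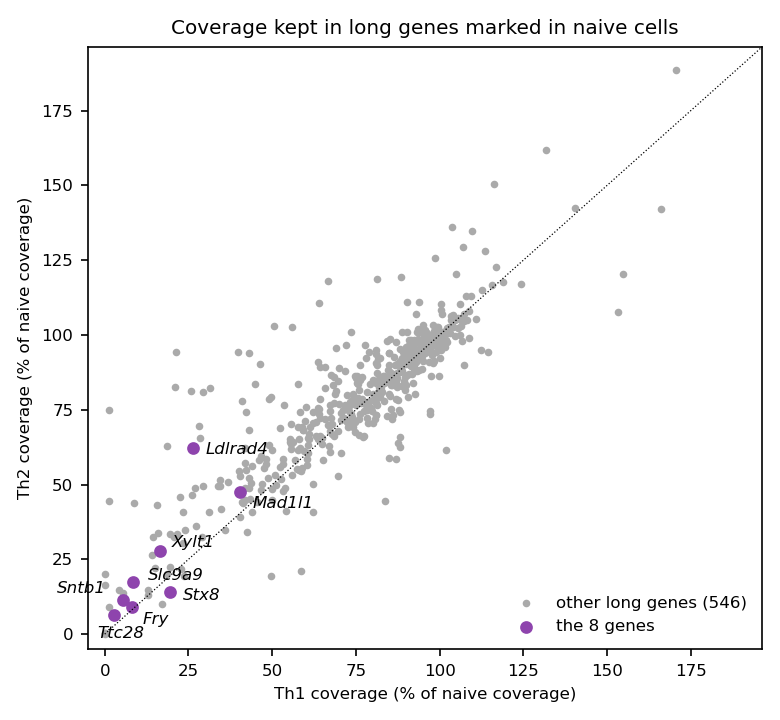
Coverage kept in Th1 (x axis) and Th2 cells (y axis) as percent of naive coverage, for 554 genes of at least 100 kb with at least 50% naive coverage; the dotted line marks equal shares. The 8 genes (purple) lie at the lower left, Mad1l1 near 40.3% and 47.6%, and Ldlrad4 above the line at 26.4% and 62.1%.

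Th2 and Th1 cells were then compared over the whole table. Ldlrad4 was the 1 member called, 60.7% ± 5.73 covered in Th2 and 25.8% ± 2.78 in Th1 cells, a difference of 34.9 points (SE 2.91, limma adjusted p = 0.000223, higher in 3 of 3 Th2 lists than in any Th1 list). Over all genes tested, 2.08% were called higher and 1.56% lower in Th2 cells. The differences of Slc9a9 (6.69 points, SE 1.74, limma adjusted p = 0.0400) and Xylt1 (9.49 points, SE 2.59, limma adjusted p = 0.0482) passed the p threshold and not the minimum of 25 points, and with single libraries left out their limma adjusted p-values reached 0.118 and 0.136. The other 5 ranged from -3.99 points (Stx8, limma adjusted p = 0.526) to 6.54 points (Mad1l1, limma adjusted p = 0.222). Sntb1 was at 4.62, Ttc28 at 2.02 and Fry at 0.504 points, with limma adjusted p-values of 0.138, 0.373 and 0.893. The median over the 8 was 5.58 points, 7 of them above 0, beside 0.0181 points over all genes tested. The share of all genes above 0 was not counted. With matched covered length Slc9a9, Ttc28, Sntb1 and Fry fell below 0. The call of Ldlrad4 ended with peaks of a −log10 q of at least 5 (12.3 points, limma adjusted p = 0.243, 31.4, 26.8 and 86.7 kb in Th2 against 15.6, 4.27 and 4.28 kb in Th1 lists). Under the same setting the Slc9a9 difference turned to -0.713 points, and both groups of Xylt1 were listed at 0.

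In 5-kb tiles the difference within Ldlrad4 was spread along the gene. Of its 65 tiles, 32 were called higher and 0 lower in Th2 cells by limma, and over all 84522 tiles tested 5.8% were called higher and 2.95% lower, together 8.75%. The tiles called ran from 17.7 to 298 kb from the low-coordinate end. At 182.7 kb (chr18:68115001-68120000) coverage was 80.8% ± 2.61 in Th2 and 3.65% ± 1.47 in Th1 cells, and at 42.7 kb it was 100% in all Th2 lists and 31.5% ± 9.54 in Th1 lists. No tile within the first 17.7 kb was called. At least 50% of the tile was covered in the mean in 42 of the 65 tiles in Th2, in 17 in Th1 and in all 65 in naive cells.

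**Figure D5:**
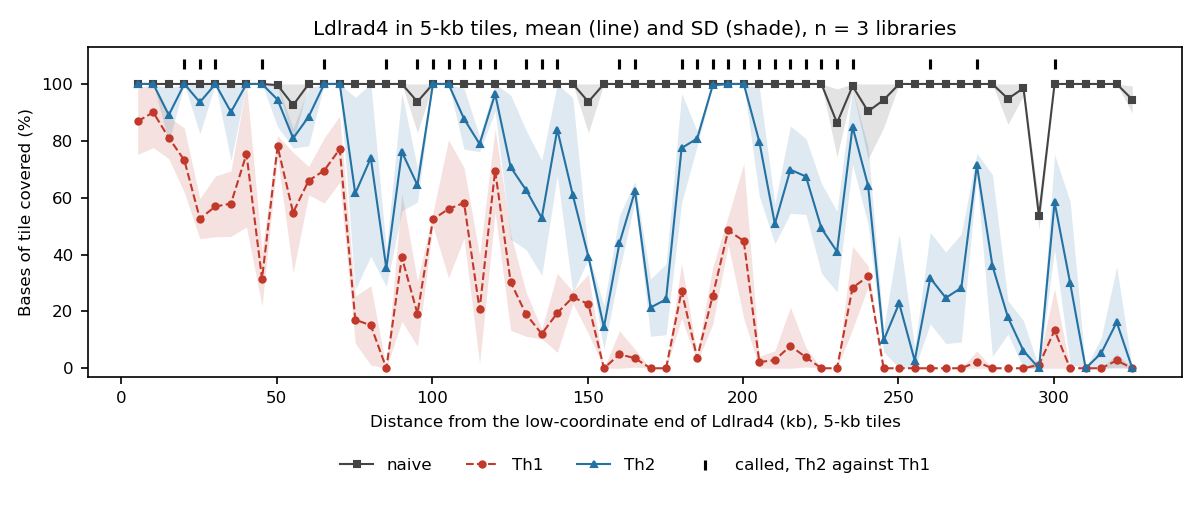
Percent of each 5-kb tile of Ldlrad4 covered, by distance from the low-coordinate end, as mean (line) and SD (shade) of 3 libraries; black ticks mark the 32 tiles called between Th2 and Th1. Naive cells lie near 100% along the gene except for a dip before its high-coordinate end, Th2 cells near 100% at the low-coordinate end and again near 187.7 kb, and Th1 cells below Th2 over most of the length.

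In the other 7 members the share of tiles called was below the 8.75% of all tiles, from 0% (Sntb1 and Fry) to 8.04% (Slc9a9). In Slc9a9, 8 of 112 tiles were higher in Th2 cells, 5 of them from 105.4 to 130.4 kb behind the 5′ end; the tile at 130.4 kb was 62.6% ± 8.59 covered in Th2 and 7.93% ± 7.05 in Th1 cells. The tile at 5.44 kb was lower in Th2 cells (72.5% ± 12.1 against 100% in all Th1 lists). Xylt1 had 3 of 52 tiles higher, at 64.0, 119 and 144 kb, Mad1l1 1 of 60 (181 kb from the low-coordinate end, 66.6% ± 6.33 against 22.3% ± 7.14) and Ttc28 1 of 57. Stx8 had 3 of 47 tiles lower in Th2 cells, at 13.6, 63.6 and 229 kb. None of the 48 tested tiles of Sntb1 or of the 48 of Fry was called.

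The genes beside the members were read in the same way. Of the 16 nearest protein-coding neighbours, 12 had a value to test, and limma called 0 of them lower in Th1 or Th2 than in naive cells, beside 16.3% and 15.4% of all genes tested, a share at which few of 12 genes would be called. At an unadjusted p under 0.05 with no minimum difference, 7 of the 12 were lower in Th1 and 7 in Th2 cells. The share of all genes at that threshold was not counted. With a limma adjusted p under 0.05 and no minimum difference, 8 of the 12 differed in Th1 and 10 in Th2 cells. Over all 11600 genes tested these counts were 6921 and 6909, in either direction. The largest drop was in Rnmt, a cap methyltransferase gene that overlaps Fam210a beyond Ldlrad4, from 58.8% ± 7.55 in naive to 36.0% ± 3.76 in Th1 and 35.9% ± 5.11 in Th2 cells (-22.8 and -22.9 points, limma adjusted p = 0.00252 and 0.00251), under the minimum of 25 points. Nudt1, beside the 5′ end of Mad1l1, was at 80.6% ± 0.610 in naive cells, 75.2% ± 3.62 in Th1 cells and 71.0% ± 2.40 in Th2 cells. Chek2, a checkpoint kinase gene 5.65 kb before Ttc28, was at 24.97% ± 0.778, 21.98% ± 0.395 and 22.3% ± 0.719. Chst2, a carbohydrate sulfotransferase gene 170.5 kb beyond Slc9a9, rose from 0% in all naive lists to 100% in all Th1 lists and 91.4% ± 9.12 in Th2 lists (limma adjusted p = 7.24e-07 and 1.28e-06). Nucb2, 840.4 kb from Xylt1, rose in Th2 cells from 0.376% ± 0.652 to 25.5% ± 8.33 (limma adjusted p = 0.000608), a call that ended under 6 of the alternatives, among them leaving out naive replicate 1 (24.9 points), naive replicate 2 (24.9), Th2 replicate 2 (21.4) or Th2 replicate 3 (24.3). The difference between a member and its neighbour was not itself tested.

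Partner genes of the members' pathways were counted in 7 lists. Of 75 listed genes 64 could be tested and 15 were called by limma in at least 1 comparison with naive cells. In Th1 cells 13 of 64 were called (20.3%, beside 20.7% of all genes tested) and in Th2 cells 14 of 64 (21.9%, beside 19.6%), so the partners were called about as often as all genes. Between Th2 and Th1 limma called 0 of the 64, beside 3.64% of all genes. With no minimum difference, 7 of the 64 had a limma adjusted p under 0.05, beside 1763 of all 11600 genes tested. At an unadjusted p under 0.05 there were 16 of the 64, a threshold at which all genes were not counted. Among sodium-proton exchangers (6 of 9 tested), Slc9a8, an exchanger of the Golgi and endosomes, fell from 86.9% ± 3.13 in naive to 43.6% ± 8.13 in Th1 and 42.6% ± 2.27 in Th2 cells, and Slc9b2 rose from 0.306% ± 0.530 to 30.7% ± 2.97 and 27.3% ± 1.44. Of 12 proteoglycan genes, Xylt2, the second xylosyltransferase, fell from 100% to 49.6% ± 2.80 and 46.5% ± 0.812, and Ext2, of heparan sulfate polymerisation, fell from 41.6% ± 2.75 to 6.83% ± 1.50 and 7.43% ± 0.846. B4galt7 was called lower in Th2 cells (69.5% ± 4.19 against 100%) and was at 77.8% ± 1.84 in Th1 cells. Of 4 testable syntrophin and dystrophin partners, Dtnb fell from 42.3% ± 2.77 to 10.4% ± 0.951 and 13.7% ± 0.927.

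Among 10 Fry and NDR kinase partners, Stk38, which encodes NDR1, fell from 97.8% ± 1.34 to 52.4% ± 3.83 and 51.0% ± 2.45, and Lats2 from 89.8% ± 0.583 to 49.5% ± 3.14 and 51.5% ± 6.59. Of 12 syntaxins and endosomal SNAREs, Stx17, of autophagosomes, fell from 51.9% ± 4.22 to 9.19% ± 1.22 and 14.2% ± 2.34. Stx11, a syntaxin of lymphocyte granule release, rose from 10.1% ± 1.14 to 96.3% ± 0.100 and 93.3% ± 3.18, and Stx5a was called lower in Th1 cells (70.9% ± 3.82 against 100%). Of 10 spindle checkpoint genes, Mad2l1, which encodes the MAD2 bound by the Mad1l1 product, rose from 64.6% ± 8.27 to 93.8% ± 0.0687 and 92.6% ± 0.677, and Tpr, of the nuclear pore basket, was called lower in Th2 cells (18.8% ± 0.877 against 44.1% ± 3.64). Of 10 genes around Ldlrad4 and TGF-beta signals, Ldlrad3 fell from 65.4% ± 4.05 to 0.932% ± 0.0973 and 5.87% ± 0.972. The ubiquitin ligase gene Nedd4 fell from 57.0% ± 1.54 to 14.6% ± 7.60 and 19.1% ± 3.94. List medians against naive ran from -22.9 to -1.22 points in Th1 and from -19.2 to -1.74 points in Th2 cells, beside -5.54 and -5.50 points over all genes. Of the 27 calls, 16 ended under at least 1 alternative. They were calls of Dtnb, Ext2, Ldlrad3, Nedd4, Slc9b2 (Th2 only), Stx17 and Tpr with matched covered length, of B4galt7 and Stx5a with centred libraries, and of Mad2l1 without naive replicate 3 (24.5 points in Th1, 23.4 in Th2). Tpr was also lost without naive replicate 2, naive replicate 3 or Th2 replicate 3 (-24.2, -24.3 and -24.9 points). The calls of Slc9a8, Xylt2, Stk38, Lats2 and Stx11 ended under none of the alternatives. Tpr and Lats2 overlap other protein-coding genes.

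The 5 genes outside the set with the profile most like the members' median over the 9 libraries are described by level only. They were chosen among 2419 genes of at least 100 kb by the smallest root mean square difference in percent covered. Lrrc28 (4.29 points) was at 71.0% ± 1.45 in naive cells, at 12.2% ± 4.15 in Th1 cells and at 7.15% ± 1.26 in Th2 cells. Fut8, the core fucosyltransferase gene (5.10 points), was at 69.4% ± 2.11, 13.5% ± 3.17 and 15.6% ± 2.41. Man1c1, a Golgi mannosidase gene (5.95 points), Rnf144a (6.32 points) and Lypd6b (7.18 points) followed, with naive means of 76.6%, 73.3% and 64.6%.

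Marker genes were read in the same lists. Cd3e, Thy1 and Lat were 100% covered in all 9 lists and Cd4 81.9% to 83.5% in the group means. Ifng was covered in all Th1 lists and Il4 and Il13 in all Th2 lists, but Tbx21 was covered in Th2 lists as well (99.9% ± 0.160) and Il4 (23.0% ± 23.6) and Il13 (17.6% ± 23.0) in part in Th1 lists. Cd8a and Cd8b1, which mark CD8 T cells, were 100% covered in all 3 naive lists and summed to 7.55 to 11.9 in Th1 and 24.8 to 39.2 in Th2 lists, where both genes in full would sum to 200 percentage points. Among B cell genes, Ms4a1, Pax5 and Blk were at 0 in all 9 lists, Cd79a was at 100% in all, and Cd79b was at 54.3% ± 25.9 in naive and at 0 in helper lists. The 4 myeloid genes and Ncr1 were at 0 in all lists. Of the other 2 NK genes, Tyrobp was at 100% in naive, 45.0% ± 9.34 in Th1 and 93.0% ± 12.2 in Th2 lists, and Klrk1 was at 26.9% ± 8.50, 99.8% ± 0.264 and 2.60% ± 3.20. The 3 NK genes summed to 120 to 136, 137 to 155 and 85.1 to 102 percentage points. The CD8 genes, Cd79b and the covered length of the lists moved with the losses in the 8 members. The part of the marker genes in the result was not tested; with matched covered length 7 of the 8 genes stayed lower in both helper groups, and Stx8 only in Th2.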

How the data were processed

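H3K79me2 chromatin immunoprecipitation libraries were analysed from the authors' broad peak lists, 1 list per library. Per the submitters' processing notes, MACS2, Bowtie2, SAMtools and Picard were run against mm10; versions, settings and the use of inputs are not given in the sources used here. Each deposited peak has a score, the authors' fold over background (a ratio), a −log10 q and a −log10 p. Fold and q rank peaks only within their own list, and the score was not used. Depth is unknown, so no counting interval could be set, and a deeper library or one with less background can yield more covered sequence.

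Peaks on chromosomes 1 to 19 and X that touched or overlapped were merged, and the kb and percent of each RefSeq gene body (GRCm38.p6) that they covered were computed with Python 3.11.15, numpy and pandas. This measure saturates at 0 and 100%, and genes without spread within groups owe their p-values to the variance borrowed from other genes. Percent covered was compared with limma 3.58.1 in R 4.3.3 (lmFit, eBayes with trend) in 1 fit of 9 libraries with 6 residual degrees of freedom; 11600 genes with values that varied were tested, and 84522 tiles of 5 kb. A call needed a Benjamini-Hochberg adjusted p under 0.05 and at least 25 points. The fit was tested on simulated data. At most 1 peak had the same coordinates in any pair of lists.

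The 8 members, the partner lists and the markers were chosen with earlier results of these data known. A listed marker gene is not reported here. Named genes are the 8 members, partner genes called in any comparison, the nearest protein-coding neighbour on each side, and the 5 genes of at least 100 kb most like the members' median profile. Replicate numbers did not pair the libraries (correlations of same-numbered deviations -0.0745 to 0.00147). Alternatives were a −log10 q of at least 5, matched covered length (217 Mb in each list), merging across 1 kb, centred libraries, genes under 10% left out, no minimum difference, the replicate block, each library left out, 10-kb tiles and gaps of 5 kb in runs.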

Additional observations from a re-analysis of the deposited data

Results flagged for a closer look

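The loss of coverage in Ldlrad4 differed between the helper types by the test of the difference itself. Coverage fell by 71.9 points from naive to Th1 and by 37.0 points from naive to Th2 cells. The 2 losses differed by 34.9 points (SE 2.91, limma adjusted p = 0.000223), and all 3 Th2 lists, at 54.6% to 66.0%, lay above all 3 Th1 lists, at 23.2% to 28.7%. Over the 15 alternatives the difference ranged from 12.3 to 37.9 points, and the lowest value, from peaks with a −log10 q of at least 5, was the one that was no longer called.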

How the results depend on the processing

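The losses from naive cells kept their direction in 239 of 240 values over the 8 members and the alternatives. The exception was Stx8 in Th1 cells with matched covered length (2.37 points), which rested on the untrimmed list of Th1 replicate 3. The genes were chosen on this contrast, so nothing is read from the direction. The size of the loss moved more in some members than in others. In Th1 cells it ran from -69.9 to -21.4 points in Slc9a9, from -48.5 to -16.8 in Fry and from -56.1 to -47.2 in Ttc28. For Stx8 in Th2 cells it ran from -65.7 to -3.13 points. With peaks of a −log10 q of at least 5, the summed lengths over the 8 genes were 1258, 39.1 and 77.2 kb for naive, Th1 and Th2. They were 1233, 261 and 361 kb with matched covered length, and 2115 kb in naive cells with peaks merged across 1 kb. Leaving out each library gave 2050.2 to 2092 kb, 311 to 357 kb and 532 to 598 kb. The summed run at the 5′ end over the 5 members with a known strand, 472, 56.8 and 45.9 kb in naive, Th1 and Th2 cells, became 214, 18.9 and 12.9 kb at the stricter q, 195.5, 43.1 and 27.8 kb with matched length, and 812, 80.7 and 63.5 kb with gaps of up to 5 kb. Leaving out libraries gave 423 to 525, 51.7 to 63.1 and 42.3 to 51.8 kb.

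Of the Th2 against Th1 differences, 9 of 120 turned. At the stricter q Slc9a9 was at -0.713, Ttc28 at -0.623 and Fry at -0.397 points. With matched length Slc9a9 was at -0.0956, Ttc28 at -0.412, Sntb1 at -0.655 and Fry at -1.48 points. Fry was also at -0.0441 with centred libraries and ranged from -0.151 (without Th2 replicate 3) to 1.44 points with a library left out. The number of members called was 0 at the stricter q, 3 with no minimum difference and 1 under every other alternative. Called tiles in the members numbered 49, or 28 with 10-kb tiles and 38 to 52 with a library left out. With no minimum difference 6921 genes were called between Th1 and naive, 6909 between Th2 and naive and 1763 between Th2 and Th1 cells, against 2403, 2275 and 422. The split of these calls moved with scaling. Against naive, 508 higher and 1895 lower in Th1 became 817 and 1032 with matched length and 736 and 1175 with centred libraries; 494 and 1781 in Th2 became 756 and 1095, and 739 and 1118. Between Th2 and Th1 cells, 241 and 181 became 144 and 174 at the stricter q and 167 and 223 with matched length. With the replicate block, whose numbers did not pair the libraries, 2383, 2261 and 393 genes and 43 member tiles were called, Ldlrad4 stayed at 34.9 points (limma adjusted p = 0.00304), and the adjusted p was 0.104 for Slc9a9 and 0.115 for Xylt1. The cause of these shifts was not tested, and depth, which is unknown, limits how far a bare stretch can be read as unmarked.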
